A study of Homo sapiens with 8 samples.

Results

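ATP8B1 (ENSG00000081923) is a protein-coding gene of 156.89 kb on the minus strand of chromosome 18, at 57646426 to 57803315 on GRCh38. The regions described here are those that the deposited lists of eIF4G2-bound RNA place inside ATP8B1 or across one of its ends, each counted once. There were 38 such regions among the 1986 of the eIF4G2 overexpression list and 0 among the 1224 of the control list. ATP8B1 was chosen by its number of regions in the overexpression list, so this count and the absence from the control list are descriptions and carry no test.

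The cells are IHCF, an immortalized line of cardiac fibroblasts of human origin, and all groups come from this 1 line. They were infected with lentivirus, either for overexpression of eIF4G2 at full length or with a scramble sequence as control, and RNA was recovered with an antibody against eIF4G2 (RNA immunoprecipitation sequencing, RIP-seq). Per the labels, eIF4G2-bound and total RNA were sequenced in 2 biological replicates each of the overexpressing and the control cells, 8 libraries in all. Only 2 lists of regions, 1 per condition, were used. They hold positions and the transcripts at them, with no read count, score or value per replicate. Depth is therefore unknown, and the lists cannot be compared against the spread of replicates. The condition of a list rests on the name of its table, which also carries the term mov10, the symbol of an RNA helicase gene that is absent from the sample labels.

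ATP8B1 encodes a P4-type ATPase, a phospholipid flippase that moves lipids from the outer to the cytoplasmic leaflet of a membrane. It works as a complex with a CDC50 subunit, chiefly CDC50A, the product of TMEM30A. The gene is best known in the liver, where its loss causes inherited intrahepatic cholestasis, a failure of bile flow. eIF4G2 (DAP5) is a relative of the translation initiation scaffold eIF4G1 that cannot bind the cap-binding protein eIF4E and takes part in alternative modes of initiation.

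The lists are concentrated on a few chromosomes, and this limits what the absence from the control list can show. Chromosome 18 held 1339 regions of the overexpression list and 0 of the control list. Of its 270 coding genes, 162 (60.0%) were in the overexpression list, against 0 (0.00%) in the control list. ATP8B1 therefore shares its absence from the control list with every coding gene of chromosome 18, and a difference between the conditions cannot be told apart from a difference between the lists in that chromosome. None of the 10 marker genes checked for fibroblasts and for liver or bile duct cells had a region. Only 3 of them lie on chromosomes 4, 10 and 18, and 5 of the other 7 lie on chromosomes without a region in either list. The fibroblast gene PDGFRA and the liver gene ALB lie on chromosome 4. Of the coding genes there, 27.3% had an overexpression region and 43.1% a control region. The fibroblast gene VIM lies on chromosome 10, for which no such share is given here. The lists therefore do not allow the cell type to be checked.

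The 38 regions fell into 5 groups along the gene when regions at most 10 kb apart were joined. Counting from the start of the gene in the direction of transcription, the first group held 2 regions, between 4.59 and 12.4 kb. The second group held 5 regions at 32.7 to 41.6 kb, and the third 9 regions at 61.6 to 74.3 kb. A pair of regions followed at 89.7 to 90.5 kb. After a stretch of 41230 bp with no region came the last group, 20 regions at 132 to 157 kb. This group at the 3′ end held more than any other, with 10320 bp of the summed width of 21720 bp (47.5%), although it spans only 16.2% of the length of the gene. All 20 regions of the group also lay over a gene on the opposite strand, so none can be assigned to ATP8B1 alone.

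**Figure D1:**
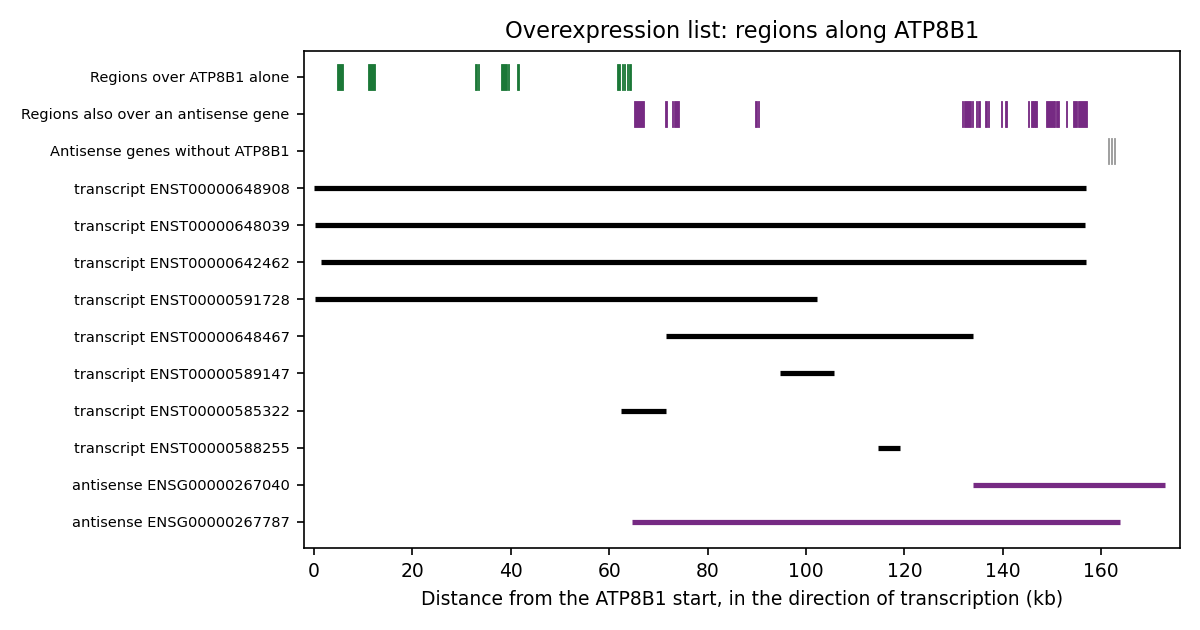
Positions of the regions of the overexpression list along ATP8B1, as the distance in kb from the start of the gene in the direction of transcription, above the 8 listed ATP8B1 transcripts (black) and the 2 antisense genes (purple lines). Green bars are the 12 regions over ATP8B1 alone and purple bars the 26 also over an antisense gene. Grey bars are the 3 regions over the antisense genes beyond ATP8B1. Green bars can lie only in the first 64.7 kb, since an antisense gene covers the rest of ATP8B1.

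The 12 regions over ATP8B1 alone all lay within 64419 bp of the start of the gene. A gene on the opposite strand covers the rest of the span, so only the first 64.7 kb can hold such a region. Nearest to the start were a region of 1350 bp at 57797376 to 57798725 and one of 1495 bp at 57790936 to 57792430. Neither reaches an annotated start of the gene: the first ends 4590 bp downstream of it. The 3 transcripts that span the whole gene start within 1327 bp of each other, so the same holds for each of them. In the second group the widest region measured 1260 bp (57764051 to 57765310), and the other 4 measured between 215 and 430 bp. The 5 regions of the third group that lie over ATP8B1 alone were narrow, at 205, 205, 215, 380 and 615 bp. Together the 12 summed to 6995 bp.

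The other 26 regions (68.4%, 95% Wilson interval 52.5 to 80.9) also lay over a gene on the opposite strand. Both of these genes are unnamed in the tables. ENSG00000267787 spans 57639455 to 57738603 and covered all 26, and ENSG00000267040 spans 57630302 to 57669296 and covered 17 of them. The tables give no strand for a region, so RNA from ATP8B1 and RNA from these antisense genes cannot be told apart at these 26 positions, which hold 14725 bp. Among the 1105 other chromosome 18 regions in coding genes, 224 (20.3%, interval 18.01 to 22.74) also lay over another gene. The intervals cover counting error only and treat neighbouring regions as independent, so they may be too narrow. Of the 46 other coding genes with at least 10 regions, 7 had a higher share than ATP8B1 and 21 had no such region, with a median of 6.90%.

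The antisense genes extend beyond the 3′ end of ATP8B1 and had regions of their own there. These were 3 narrow regions at 57640426 to 57640640, 57641081 to 57641285 and 57641696 to 57641930, the closest 4495 bp from the end of ATP8B1. On the other side the next region lay 240880 bp away, at the start of NEDD4L. The stretch under the antisense genes but outside ATP8B1 had 1.86 regions per 10 kb, over 16.1 kb. The stretch of ATP8B1 alone had 1.85 per 10 kb over 64.7 kb, and the stretch of ATP8B1 that lies under ENSG00000267787 only had 1.30 per 10 kb over 69.3 kb. The stretch shared by ATP8B1 and both antisense genes, 22.9 kb at the 3′ end, was the densest of the 4, with 7.43 regions per 10 kb and 36.2% of its bases covered. Coverage was 10.8% in the stretch of ATP8B1 alone and 5.27% in that of the antisense genes without ATP8B1. No test was run between these stretches, since each is a single piece of 1 locus.

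RefSeq gene records of the same span gave a partly different division. ATP8B1-AS1, a long noncoding RNA at 57630331 to 57669283, lay under 17 regions, and LOC105372141, another long noncoding RNA, under 2. MRPS17P7, a pseudogene of a mitochondrial ribosomal protein gene at 57763720 to 57764242, lay under 2 regions that the tables list over ATP8B1 alone, those of 1260 and 215 bp in the second group. By these records 21 of the 38 regions lay over another gene as well. The remaining 17 included all the regions of the first group. Within the 41230 bp that hold no region, RefSeq lists a pair of transfer RNA pseudogenes and no other gene besides ATP8B1.

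The 8 listed ATP8B1 transcripts carried the regions unequally, which follows from where they lie. The 3 transcripts spanning the gene (ENST00000648908, ENST00000648039 and ENST00000642462) overlapped all 38 regions. ENST00000591728, which shares their 5′ part and ends 102226 bp from the start of the gene, overlapped 18, among them all 12 over ATP8B1 alone. ENST00000648467, which lies 71561 to 133892 bp from the start of the gene, overlapped 8 and ENST00000585322 overlapped 6. The 2 short transcripts ENST00000589147 and ENST00000588255 overlapped 0, and both lie in the stretch without a region. Exon positions were not used here, so a region cannot be assigned to an exon, an intron or a UTR, and no sequence of a region is shown.

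At the 3′ end, the widest region of the last group (1820 bp, 57646231 to 57648050) ran across the annotated end of ATP8B1 and 195 bp beyond it. A region over the 3′ end was common on chromosome 18, with 82 of 161 other coding genes that had a region (50.9%, interval 43.3 to 58.5). A region over the 5′ end of the gene span was less common, with 22 of 161 (13.7%, interval 9.20 to 19.8), and ATP8B1 had none. Inside its span, the region at 57731486 to 57731895 lay across the start of ENST00000648467 and the end of ENST00000585322. The region at 57669371 to 57669575 lay across the end of ENST00000648467. Of the ATP8B1 regions, 10 of 38 lay in the last 10% of the gene span (26.3%, interval 15.0 to 42.0), against 366 of 1166 pairs of a region and another coding gene of chromosome 18 (31.4%, interval 28.8 to 34.1). The intervals overlap, but they treat neighbouring regions as independent and may be too narrow. A difference in the last 10% was not tested. The 10% of the span before it held another 10 regions of ATP8B1, where the other genes had 175 of 1166 (15.0%). All the ATP8B1 regions in both of these parts also lay over an antisense gene, so their RNA cannot be assigned to ATP8B1. Among the other chromosome 18 regions in coding genes, 20.3% also lay over another gene.

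**Figure D2:**
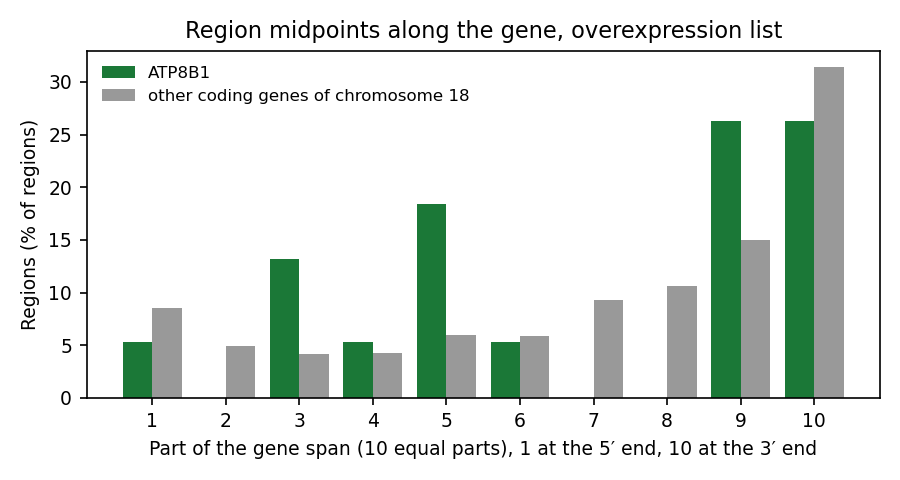
Share of region midpoints (percent of regions) in each of 10 equal parts of the gene span, from the 5′ end (1) to the 3′ end (10), for the 38 ATP8B1 regions (green) and for 1166 pairs of a region and another coding gene of chromosome 18 (grey). The last part holds 26.3% of the ATP8B1 regions and 31.4% of the others. All the ATP8B1 regions in the last 2 parts also lie over an antisense gene.

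The regions differed widely in width. The narrowest measured 205 bp, the median was 342.5 bp and the widest 2050 bp (57736201 to 57738250, also over ENSG00000267787). The 1301 other regions of chromosome 18 had a median of 230 bp and reached 6520 bp. In ATP8B1 8 regions of at least 1000 bp made up 12105 bp, 55.7% of the summed width. These wide regions were spread over 4 of the 5 groups, with 2 in the first, 1 in the second, 2 in the third and 3 in the last. Regions over ATP8B1 alone had a median of 395 bp and those also over an antisense gene one of 295 bp, with overlapping ranges (205 to 1495 bp and 205 to 2050 bp). Most gaps between neighbouring regions were short: 23 of 37 were at most 1000 bp, and the median was 500 bp.

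Region ends on chromosome 18 fell on whole multiples of 205 or 215 bp in every case (100%), 2 grids whose origin is not given in the sources used here. Of the ATP8B1 regions, 16 had both ends on the 205 bp grid, 10 had both on the 215 bp grid and 12 (31.6%, interval 19.1 to 47.5) had 1 end on each. Among the other regions of the chromosome 345 of 1301 (26.5%, interval 24.2 to 29.0) had 1 end on each grid. The regions of ATP8B1 with an end on each grid had a median width of 435 bp, against 215 bp for regions on 1 grid, with overlapping ranges (225 to 1820 bp and 205 to 2050 bp). A region a single grid step wide has both ends on 1 grid by definition, so this difference is partly built in. The 12 with an end on each grid include both regions of the first group and the region across the 3′ end. In all, 15 of the 38 regions (39.5%, interval 25.6 to 55.3) were a single grid step wide, against 636 of 1301 (48.9%, interval 46.2 to 51.6) of the others.

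**Figure D3:**
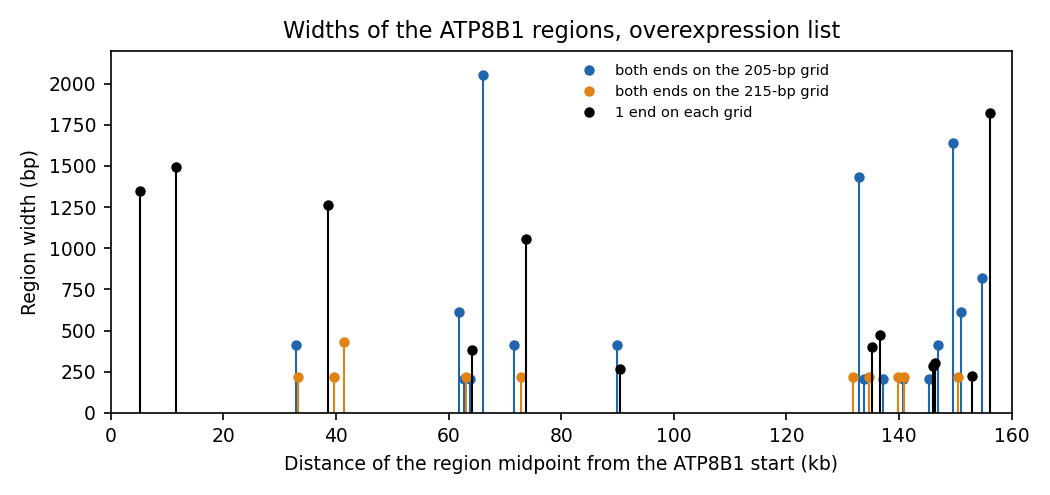
Width in bp of each of the 38 ATP8B1 regions against the distance of its midpoint from the start of the gene in kb, coloured by the grid on which its ends fall (blue 205 bp, orange 215 bp, black 1 end on each). Both regions nearest to the start and the one at the far 3′ end are black, and the widest, 2050 bp, is blue.

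By number of regions and by summed width ATP8B1 was second among the 162 coding genes of chromosome 18 with a region, behind ROCK1, a kinase of actomyosin contraction. Of the 270 coding genes of the chromosome, 47 (17.4%) had at least 10 regions. ATP8B1 is also a long gene, at place 30 of the 162 by span. Per 100 kb of span it had 24.2 regions, which put it at place 46 of 162, and by covered bases per kb at place 35. Length alone did not order the genes: across the 162 the Spearman correlation of region number with span was 0.21, given as a description, since these genes share their libraries. The 50 other genes of at least 100 kb with a region had a median of 7 regions and at most 40.

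**Figure D4:**
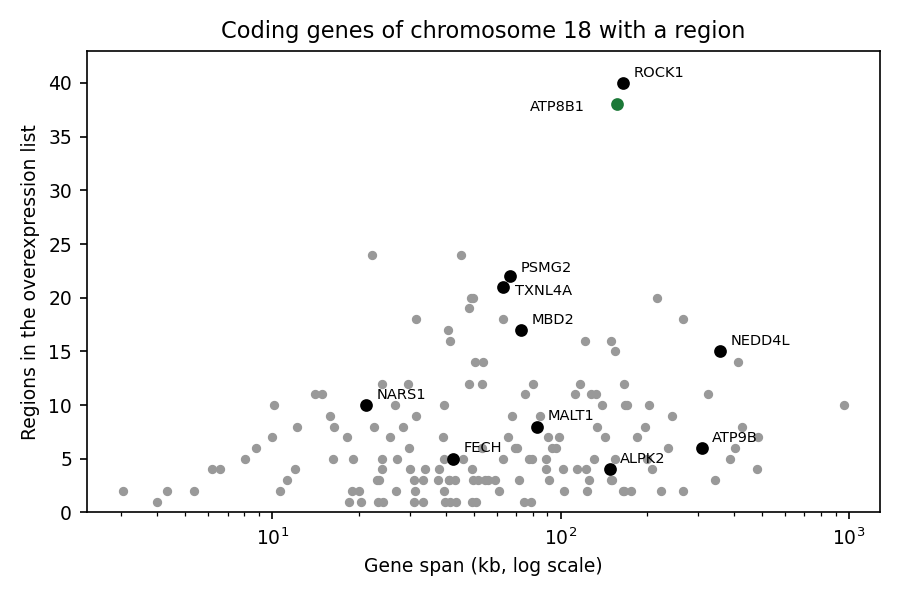
Number of regions in the overexpression list against gene span in kb (log scale) for the 162 coding genes of chromosome 18 with a region; ATP8B1 is green, its neighbours with a region, ATP9B and 4 genes most like it are black. ATP8B1 (38 regions) and ROCK1 (40) stand above all others, the next of which have 24.

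The genes most like ATP8B1 were taken as those closest in region number and in regions per 100 kb, as the distance on log2 scales, among 99 coding genes with at least 5 regions and none in the control list. ROCK1 was the closest (distance 0.07), with 40 regions at 24.3 per 100 kb. Its regions were arranged differently: none lay over another gene, 2 of 40 lay in the last 10% of the span, and its longest stretch between regions was 8.41 kb, against 41.2 kb in ATP8B1. PSMG2, TXNL4A and MBD2 were well behind, at distances of 0.90 to 1.16. PSMG2, a chaperone of proteasome assembly, had 22 regions, of which 17 also lay over another gene; CEP76, a centrosomal protein gene, and an unnamed gene are the genes listed there. TXNL4A, a component of the U5 small nuclear ribonucleoprotein of the spliceosome, had 21 regions. MBD2, a reader of methylated CpG, had 17. None of the regions of TXNL4A and MBD2 lay over another gene.

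**Figure D5:**
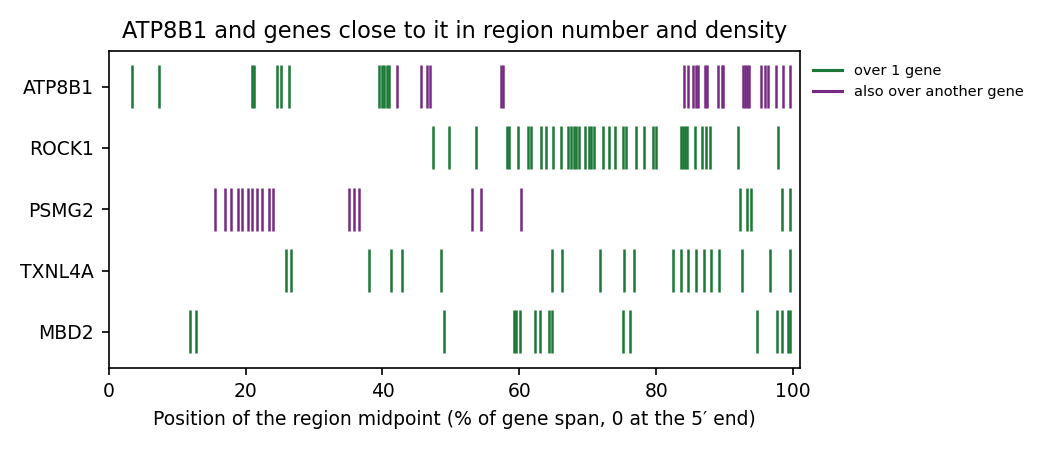
Positions of region midpoints as percent of the gene span (0 at the 5′ end) in ATP8B1 and 4 genes close to it in region number and density. Green lines are regions over 1 gene and purple lines regions also over another gene; ATP8B1 has 26 purple lines, PSMG2 17 and the other 3 genes 0.

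Among the 46 other coding genes with at least 10 regions, the longest stretch between regions had a median of 12.1 kb and reached 293 kb, in NEDD4L. ATP8B1, at 41.2 kb, was at place 12 of 47 by this length, and as a share of its span (26.3%) close to the median of the others (26.8%). The share of regions in the last 10% of the span was higher than that of ATP8B1 in 16 of these 46 genes.

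The neighbouring coding genes differed in their regions. Downstream of ATP8B1, NARS1, the cytosolic asparaginyl-tRNA synthetase, had 10 regions in 21.2 kb (47.2 per 100 kb, 4870 bp), a higher density than ATP8B1. FECH, the ferrochelatase that inserts iron into haem, had 5 regions (11.8 per 100 kb), and the transcription factor gene ONECUT2 had 0. Upstream, the ubiquitin ligase NEDD4L had 15 regions in 357 kb (4.198 per 100 kb), the alpha-kinase ALPK2 had 4 and the paracaspase MALT1 had 8, and all 8 were shared with an unnamed gene. The density of ATP8B1 thus lay between those of NARS1 and FECH. The control list held 0 regions over these 6 genes, as over the whole of chromosome 18. Of the 270 coding genes there, 60.0% had an overexpression region and 0.00% a control region. A difference particular to these neighbours was not tested.

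Of the 17 genes listed as P4-type ATPases and CDC50 subunits, 3 were present in the overexpression list, against 0 in the control list. The 3 include ATP8B1 itself, chosen for its regions, and 2 of them lie on chromosome 18, where 60.0% of coding genes were in the overexpression list, against 0.00% in the control list. All 3 were among the 4 members on chromosomes 4, 10 and 18. ATP9B, a flippase of the trans-Golgi network on chromosome 18, had 6 regions in 308.89 kb (1.94 per 100 kb), against 24.2 per 100 kb in ATP8B1. All 6 were narrow, 205 to 245 bp, had midpoints between 84.1% and 100% of the span and lay over no other gene, and 4 lay in the last 10%. The region at 79378216 to 79378460 crosses the end of ATP9B at 79378283. Its midpoint lies beyond that end and was set to 100%. ATP10D, a flippase gene on chromosome 4, had 1 region of 860 bp at its 3′ end (47592401 to 47593260), and ATP8A1, a flippase gene of 249 kb on the same chromosome, had none. On chromosome 4, 27.3% of coding genes were present in the overexpression list, against 43.1% in the control list. The CDC50 genes TMEM30A, TMEM30B and TMEM30C had none; TMEM30C is recorded as a pseudogene. Of the 13 members elsewhere, 9 lie on chromosomes where neither list had a region, so their absence does not set them apart.

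Of 11 genes of inherited cholestasis, ATP8B1 was the only member with a region in the overexpression list, and USP53 the only member with one in the control list. The 11 include 3 on chromosomes 4, 10 and 18. MYO5B, a myosin motor of membrane recycling on chromosome 18, had 0 regions in 372 kb. Of the coding genes of that chromosome, the overexpression list included 60.0% and the control list 0.00%. USP53, a tight junction protein gene on chromosome 4, had none among the overexpression regions but 6 among the control regions (2905 bp). These had midpoints within the first 14.5% of its span, with 1 region shared with an unnamed gene. For chromosome 4 as a whole, the control list included 43.1% of the coding genes and the overexpression list 27.3%. Presence was thus more common there in the control list in general, and a difference particular to USP53 was not tested. The other 8 genes, among them the bile salt exporter ABCB11 and the phospholipid exporter ABCB4, lie on chromosomes without a region in either list.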

How the data were processed

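The authors deposited 1 table of regions per condition, made from eIF4G2 RIP-seq. Positions, widths and distances to Ensembl transcripts are given in bp and are not normalized, per the file headers; the signed distance to a transcript start, also deposited, is a length in bp that can be negative (not a score of binding) and was not used. The build is GRCh38 and the tools are HISAT2 2.1.0, Trimmomatic 0.36 and bcl2fastq 2.19.0, per the submitters' processing notes. How regions were called, at which threshold, and how replicates and total RNA entered is not given in the sources used here.

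A region counted for a gene if it lay inside it or overlapped it by at least 1 bp. RefSeq records of GRCh38.p14 gave spans and gene types; the ATP8B1 span was identical in both sources, and 465 coding genes of the overexpression list matched by symbol or an older symbol on the same chromosome. Positions are region midpoints, and a midpoint beyond the span was set to the end of the span. Shares have 95% Wilson intervals. The lists hold no counts or values per sample, so no test was run. Named genes were ATP8B1, genes under its regions, members with a region of the flippase and cholestasis lists, 3 coding neighbours on each side and the 5 genes most like it, of which 1 is not reported here; other members were named as examples. The gene and lists were chosen with earlier results of these data known. The placing of midpoints along a span, the detection of grids and the merging of regions were tested on simulated data. The counts per gene were not. Software was numpy 2.4.6, scipy 1.17.1, pandas 2.3.3 and matplotlib 3.10.9 under Python 3.11.15.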

Additional observations from a re-analysis of the deposited data

How the results depend on the processing

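The count of ATP8B1 regions depends on what counts as 1 region: 38 as listed became 15 with regions up to 1000 bp apart merged, 18 with regions of at least 400 bp and 12 with regions that have an end on each grid, a choice made after seeing the data. The summed width moved by over 1.5 times only for the last of these, to 9310 bp. Of the regions also over another gene (26), 0 remained when only named genes counted, since both antisense genes are unnamed in the tables, and merging, also added later, left 10 of 15. The share in the last 10% of the span was 0 for regions over ATP8B1 alone, which is fixed because an antisense gene covers that part. It was also 0 along ENST00000591728, which ends before the 3′ part. Along ENST00000585322, with 6 regions, it was 16.7%, and along ENST00000648467, with 8, 37.5%, against 26.3% along the gene; both lie within the interval of that share. The other alternatives moved no count by over 1.5 times and no share beyond its interval. No paired analysis was possible because the lists hold no values per replicate, and for the same reason no replicate could be left out. Depth is unknown, so the lists cannot show that RNA without a region was unbound.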
